A study of Cannabis sativa with 6 samples.

Results

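The genes described here are 178 well-expressed leaf genes of *Cannabis sativa*. In the deposited normalized values their transcript level was nearly the same in control plants and in plants kept at high temperature. On other scales this holds for a part of them only. The 178 genes are candidate reference genes. They were picked by 3 limits on the deposited normalized values, applied to the 33673 rows named by a LOC locus number: a mean over the 6 libraries of at least 1500, a log2 ratio of the heat mean to the control mean between -0.1 and 0.1, and a highest library value at most 1.2 times the lowest. Of the 33673 rows 4410 met the limit on level, and 178 of these, 4.04%, met all 3 limits. They make up 0.520% of the 34253 gene rows of the series. The values that chose them are therefore a description of the genes and not a test of their stability.

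Leaf RNA was sequenced from young plants of the cultivar Pink Pepper in 3 control and 3 heat libraries. Seedlings were raised for 15 days, moved to pots and grown for another 3 weeks at 23 ± 2 °C. The treatment then lasted 7 days at 40 ± 4% relative humidity, with the chamber at 45 ± 2 °C for the heat plants and at 23 ± 1 °C for the control plants. All plants are of one cultivar. Whether each library stands for its own plant is not in the labels, and the spread between libraries may be technical.

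A reference gene is a transcript against which others are scaled when RNA is quantified by PCR, to correct for differing amounts of input RNA. It is useful only where the treatment leaves its share of the RNA unchanged, which is why stability is checked anew for each tissue and stress. In plants the genes commonly taken for this purpose include those of actin, tubulin, ubiquitin, elongation factor 1-alpha and glyceraldehyde-3-phosphate dehydrogenase. Heat puts such choices to a hard test, because plant cells under heat switch on chaperone genes through heat shock transcription factors while much of the transcription for growth and photosynthesis is turned down. Sequencing libraries meet the same problem: each is scaled by a number that stands for its depth, and a gene is called stable only relative to that number. DESeq2 size factors, the scale of the deposited values, set the typical gene to no change.

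The control libraries held 30766680, 33043083 and 36584253 counts on genes, and the heat libraries 30012772, 28853936 and 28492832. Of all listed reads 88.8% ± 0.178 were assigned to genes in control and 84.1% ± 0.104 in heat (SD, n = 3). The 178 genes together made up 2.18% ± 0.00528 of the gene counts of the control libraries and 2.06% ± 0.00838 of those of the heat libraries. In whole leaves, fewer cells of a type and less RNA per cell cannot be told apart. Each had between 1239 and 34336 counts in each library, with a median of 2528. All 178 had the RNA class protein-coding in the RefSeq gene table, as did 99.6% of the 4410 well-expressed LOC genes and 85.3% of all LOC rows. Locus numbers are their only names here, and neither the functions of their products nor markers of leaf cell types were analysed here.

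Few well-expressed genes stayed near a ratio of 1. Of the 4410 genes, 182 lay within the log2 limit of 0.1, 666 lay between 0.1 and 0.5, and 739 between 0.5 and 1. A further 1260 genes had an absolute log2 ratio between 1 and 2, 1047 between 2 and 4, and 509 a finite one above 4. The remaining 7 genes were at 0 throughout one group and have no finite ratio. The heat mean was the higher one for 61.1% of the 4410 genes, and their median log2 ratio was 0.53. The 178 stable genes thus lie below the middle of this distribution. By level, 111 of 2301 genes with a mean from 1500 to 3000 met the limits (4.82%), 42 of 1241 from 3000 to 6000 (3.38%), 22 of 556 from 6000 to 12000 (3.96%) and 3 of 312 above that (0.962%).

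**Figure D1:**
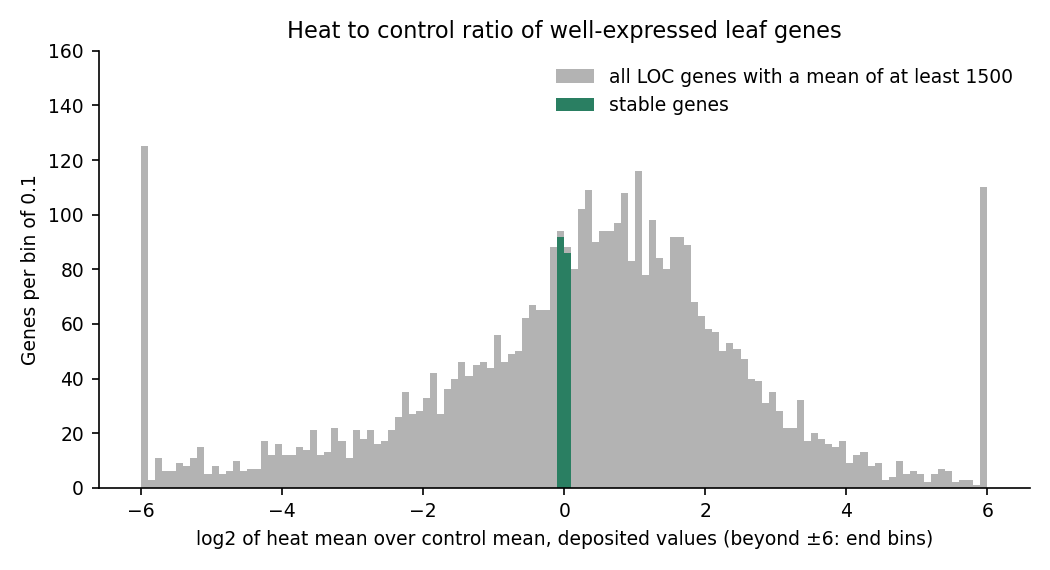
Number of genes per bin of 0.1 in the log2 ratio of the heat mean to the control mean of the deposited values. Grey bars hold the 4410 LOC genes with a mean of at least 1500, with ratios beyond ±6 gathered in the end bins, and green bars the 178 stable genes, which fill nearly the whole of the 2 bins beside 0.

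Each stability limit by itself left a small part of the 4410 genes. Of the 182 genes within the log2 limit, 178 also kept their highest library within 1.2 times their lowest, and 293 of the 4410 genes met the limit on highest over lowest. Among the 178 genes the heat mean was higher for 86 and lower for 92. The log2 ratio was at most 0.05 in size for 99 genes and at most 0.02 for 40. Highest over lowest ranged from 1.022 to 1.199 with a median of 1.104, and stayed at or under 1.1 for 83 genes. Over the other 4232 well-expressed genes the median of highest over lowest was 3.08.

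The most even gene over the 6 libraries was LOC115705821. Its deposited normalized values were 3284, 3239 and 3235 in control and 3247, 3257 and 3307 in heat. Control and heat overlapped, and the coefficient of variation (the SD as a percentage of the mean) over all 6 was 0.868%. LOC115712065 had 10838, 10601 and 10962 in control and 10956, 10965 and 10724 in heat, a coefficient of variation of 1.40%. LOC115707109 had 4367, 4208 and 4216 in control and 4277, 4264 and 4223 in heat, with the same 1.40%. In both genes the groups overlapped. LOC115709883 went from 3586 ± 83.0 in control to 3601 ± 9.81 in heat (SD, n = 3), and LOC115709386 from 2799 ± 40.2 to 2795 ± 52.8. For both the group means lay closer together than the SD of the control libraries.

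The next 5 genes by coefficient of variation showed small differences between the group means. LOC115699691 had 11919, 11762 and 11800 in control and 11481, 11720 and 11446 in heat. All 3 heat libraries were below all 3 control libraries, by a log2 ratio of only -0.034. LOC115706531 had 15990, 16089 and 16147 in control and 15431, 16095 and 16012 in heat, with heat replicate 1 the lowest of the 6 and a log2 ratio of -0.021. LOC115714405 went from 2402 ± 42.9 to 2359 ± 29.0, LOC115702913 from 8587 ± 158 to 8398 ± 70.1, and LOC115709094 from 2102 ± 42.1 to 2130 ± 39.7 (SD, n = 3). The groups overlapped for LOC115714405 and LOC115709094. They also overlapped for LOC115702913, where control replicate 1 at 8444 lay below heat replicate 1 at 8465.

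**Figure D2:**
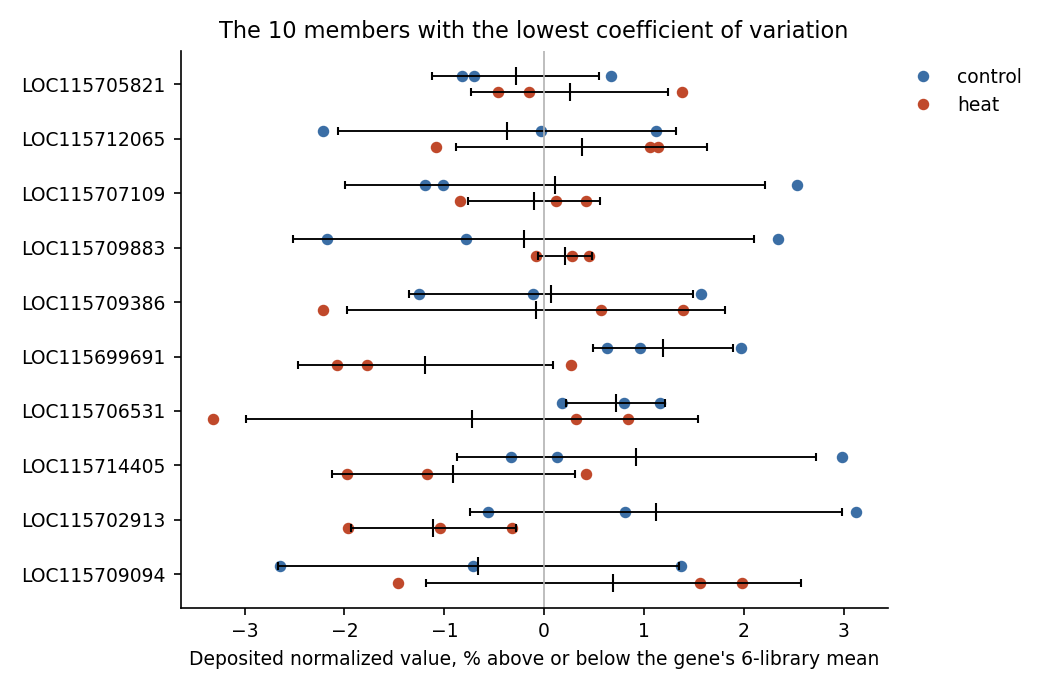
Deposited normalized value of each library as a percentage above or below the gene's mean over 6 libraries, for the 10 stable genes of lowest coefficient of variation (0.868% at the top to 1.88% at the bottom). Points are libraries, ticks are group means and bars are SDs (n = 3); in this set the groups are apart for LOC115699691 only.

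Counting error by itself puts an expected spread into such figures, and the figure of a single gene can fall below it. For each gene the coefficient of variation that random counting of its reads would give by itself was computed from its counts, and it had a median of 2.00% over the 178 genes, from 0.606% to 2.58%. The observed coefficient of variation had a median of 3.78%, from 0.868% to 6.84%. It fell below the counting value for 6 genes, all 6 of them among the 10 genes of lowest coefficient of variation. LOC115705821, with 0.868% observed, has a counting value of 1.75%. On the deposited values the spread of these 6 genes was within what counting alone gives, so this depth does not tell their order there. Being among the lowest on that scale is in part why they fall below the counting value. Counts were higher for LOC115712065, LOC115699691, LOC115706531 and LOC115702913. Their observed 1.40%, 1.60%, 1.67% and 1.78% lay above counting values of 0.960%, 0.925%, 0.791% and 1.09%. With each library scaled by its total gene counts alone, all 6 genes lay above their counting values. There they ran from 2.915% for LOC115709094 (counting value 2.173%) to 4.254% for LOC115714405 (counting value 2.05%).

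**Figure D3:**
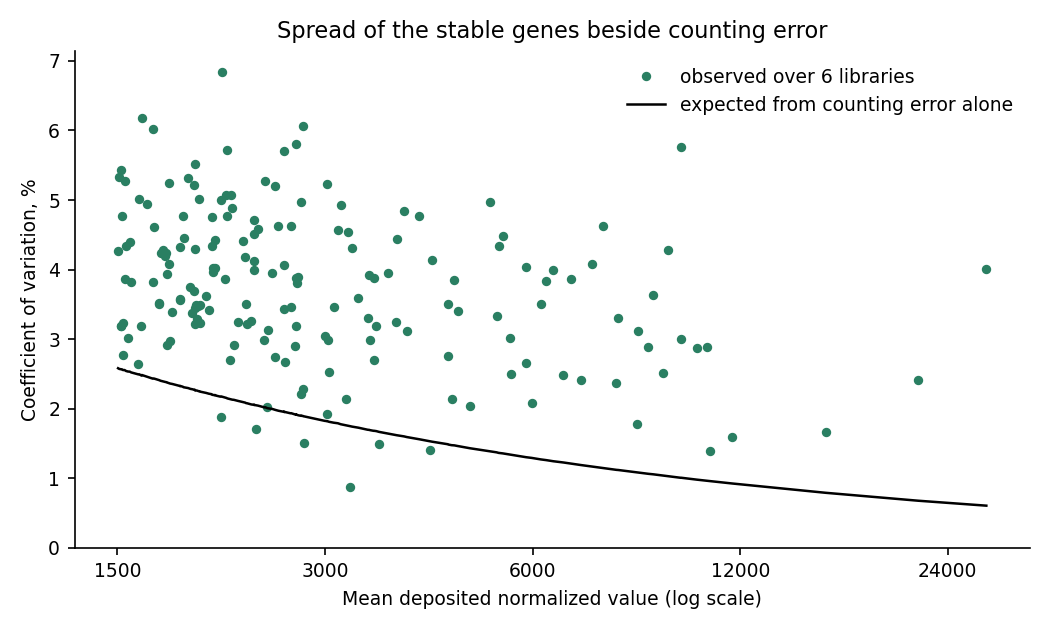
Coefficient of variation over the 6 libraries (points, 178 genes) against mean deposited value on a log axis, with the value expected from counting error alone as a line. Of the points, 6 lie under the line and 172 above it, and the highest, LOC115699749, stands at 6.84%.

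The genes with the highest mean values offer more reads but are not all equally level. These values grow with transcript length as well as with the number of transcripts, so their order is not an order of abundance. LOC115701050, at a mean of 27298, had 28057, 28293 and 28246 in control and 26447, 27103 and 25642 in heat. Every heat library was below every control library, at a log2 ratio of -0.095, close to the limit of the rule. LOC115709092, at a mean of 21745, had 21453, 20926 and 21600 in control and 22058, 22052 and 22381 in heat. Here every heat library was above every control library, at 0.056. The remaining 3 of the 5 highest are LOC115706531, LOC115699691 and LOC115712065, which also belong to the 10 of lowest coefficient of variation.

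Genes at the edges of the rule differ little across it. The lowest mean inside was 1503 for LOC115723461, and the highest outside among genes meeting the other limits was 1490 for LOC115698763. LOC115706882 was just inside the log2 limit at 0.0999 and LOC115722312 at -0.0987, while LOC115695895 was just outside at -0.1001. The largest highest over lowest inside was 1.199 for LOC115699749, and the smallest outside was 1.206 for LOC115706144. LOC115699749 had 2260, 2273 and 2058 in control and 1896, 2073 and 2200 in heat, so that its groups overlapped while its libraries within a group differed by more than its group means.

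Spread between libraries of the same group was measured as well, although the rule had bounded it for the stable genes. The coefficient of variation within control had a median of 2.52% over the 178 genes and 2.78% over the other well-expressed genes, and within heat 3.41% and 3.46%. The highest value of a gene fell in heat replicate 2 for 48 of the 178 genes and in heat replicate 1 for 18. The lowest value fell in heat replicate 3 for 49 genes and in heat replicate 2 for 12. Averaged over the 178 genes as a geometric mean, the deposited values were 2978, 2961 and 2969 in control and 2948, 3005 and 2950 in heat, and the highest library was 1.019 times the lowest.

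A comparison that does not depend on how libraries are scaled is the ratio of 2 genes within a library. For each pair of the 178 genes the SD of that log2 ratio over the 6 libraries was taken, and its mean over all pairs of a gene is the gene's M value, the measure of the geNorm method, in which a lower value means a more constant ratio to the other candidates. M ranged from 0.056 to 0.112 with a median of 0.073. Both the low values and their order are in part given by the rule: the candidates were chosen within a band around 0 on the deposited scale, and a gene near the middle of that band differs least from the others. The place in the band does not set M alone: LOC115705908, with a log2 ratio of 0.090 on the deposited values, had an M of 0.0715, below the median. M is therefore given as a description and is no independent support for the order by coefficient of variation. LOC115699691 and LOC115705821 had the lowest M, both 0.0556, followed by LOC115712065 at 0.0558 and LOC115707109 at 0.0561. Of the 10 genes of lowest M, 7 were among the 10 of lowest coefficient of variation. The others were LOC115699085, LOC115715031 and LOC115707773. The highest M values were 0.112 for LOC115699749, 0.105 for LOC115716951 and 0.102 for LOC115725463, which also had the highest coefficients of variation. The steadiest single pair, of 15753, was LOC115719205 with LOC115723374. The ratio of their values was 0.2207, 0.2228 and 0.2208 in control and 0.2200, 0.2219 and 0.2238 in heat, an SD of 0.0093 on the log2 scale. These lowest genes and this pair were picked from their values.

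On counts per 1000000 gene counts (CPM), where each library is scaled by its total alone, the same genes stood lower in heat. A change of scale multiplies all genes of a library by one number and so moves all 178 together. Their median log2 ratio was -0.0014 on the deposited values and -0.082 on CPM, and the mean CPM was lower in heat for 165 genes and higher for 13. The geometric mean over the 178 genes was 98.7, 98.6 and 98.7 CPM in control and 93.6, 93.2 and 93.0 CPM in heat. The deposited values sum to 1.06 times as much in a heat library as in a control library, which is the same step on the log2 scale, 0.080. Whether the total or the typical gene is the better measure of leaf RNA was not tested, and the amount of RNA per leaf or per cell was not measured.

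Both stability limits were still met on CPM by 108 of the 178 genes (60.7%). Among the 4410 well-expressed genes 174 met them on CPM, of which the 108 are 62.1%. The 70 genes that failed had log2 ratios from -0.179 to -0.101 on CPM. For 57 of them the log2 limit alone was broken and for 13 both limits, and all 70 had a log2 ratio of -0.020 or lower on the deposited values. The 3 lowest on CPM were LOC115722312 at -0.179, LOC115695775 at -0.178 and LOC115699749 at -0.176, and the 3 highest were LOC115706882 at 0.020, LOC115725145 at 0.018 and LOC115723018 at 0.015. Of the 10 genes of lowest coefficient of variation on the deposited values, LOC115699691, LOC115706531, LOC115714405 and LOC115702913 failed on CPM, at log2 ratios of -0.115, -0.101, -0.107 and -0.112. The other 6 passed, among them LOC115705821 with 108.9, 107.8 and 107.5 CPM in control and 103.1, 101.0 and 104.3 CPM in heat.

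The most even genes on CPM were others. LOC115705908 had 196.1, 200.6 and 199.0 CPM in control and 200.8, 199.3 and 199.5 CPM in heat, a coefficient of variation of 0.840%. LOC115718904 had 192.6, 188.7 and 190.8 CPM in control and 189.4, 188.5 and 187.9 CPM in heat, or 0.934%. LOC115725145 had 189.4, 187.3 and 188.1 CPM in control and 188.6, 192.7 and 190.6 CPM in heat, or 1.02%. For all 3 genes the groups overlapped on CPM, whereas on the deposited values every heat library of each was above every control library, as for LOC115705908 with 5915, 6024 and 5988 in control and 6326, 6425 and 6328 in heat. LOC115716397 and LOC115714173 followed with coefficients of variation of 1.18% and 1.39% on CPM. Next were LOC115709092, LOC115715031, LOC115704794, LOC115718490 and LOC115716788, from 1.69% to 1.87%. LOC115709092, with 708.6 ± 10.8 CPM in control and 696.6 ± 11.3 CPM in heat (SD, n = 3), is also the second highest by mean value.

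Over 5 scales the choice narrowed to 31 genes. With TMM factors, which trim extreme genes before scaling, 166 of the 178 genes met both stability limits, and the median log2 ratio was -0.018. With upper-quartile factors 91 did, at a median of -0.099. Per 1000000 listed reads, with unassigned reads in the total, 31 did, at a median of -0.161. These 31 genes met the limits on the other 4 scales as well. For the log2 limit the scales between the deposited values and listed reads add no separate check, since a scale moves all genes together. On the deposited values the 31 were all slightly higher in heat, with log2 ratios from 0.060 to 0.0999. They are a part of the 86 genes whose heat mean was higher there. On the scale of listed reads all 31 were lower in heat, from -0.0998 to -0.060. Their direction therefore depends on the scale for every one of them. On CPM they lay from -0.020 to 0.020, with 13 above 0 and 18 below. None of the 10 genes of lowest coefficient of variation on the deposited values is among the 31. LOC115705908, LOC115718904, LOC115725145, LOC115716397, LOC115714173 and LOC115718490 are, as are LOC115706882, LOC115723018, LOC115698801 and LOC115719292.

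**Figure D4:**
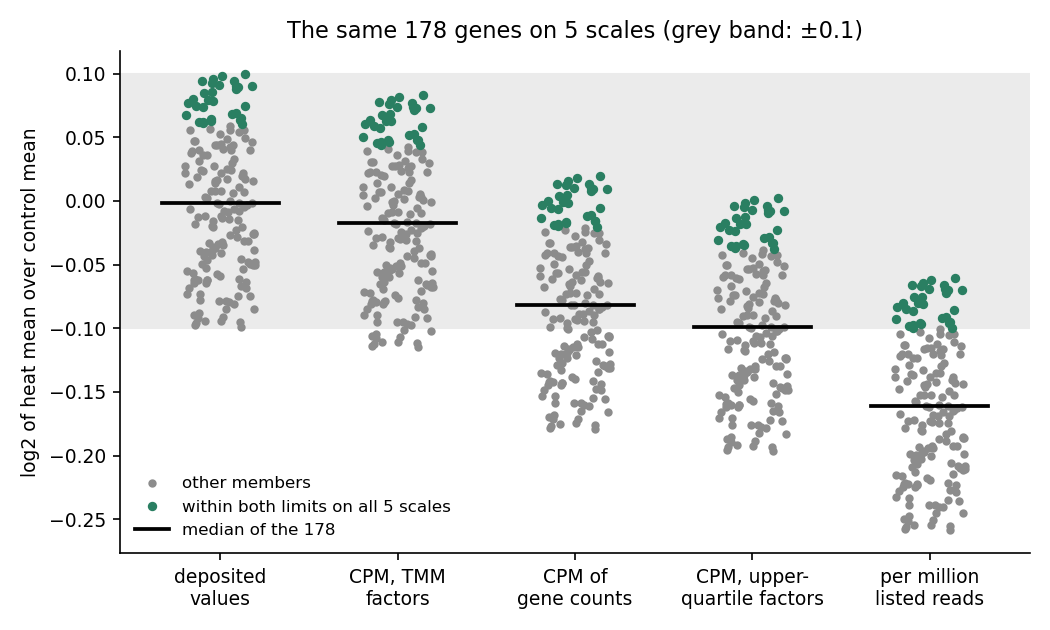
Log2 ratio of the heat mean to the control mean for the 178 genes (points) on 5 scales, with the median as a bar and the limit of ±0.1 as a grey band. The whole set shifts down from a median of -0.0014 on the deposited values to -0.161 per 1000000 listed reads, and the 31 genes in green stay in the band throughout.

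A test across all genes of heat against control, which is the contrast the rule used, called few of the 178. Of 17727 genes tested with edgeR's quasi-likelihood test 90.7% were called at an adjusted p under 0.05, 44.3% rising and 46.4% falling. Of the 178 genes, all of which were tested, 3 were called rising and 18 falling, and 157 were not called. Nothing is read from this difference, since the rule had removed the genes that moved. The 3 called rising were LOC115705908, LOC115716397 and LOC115725145, with log2 fold changes of 0.073 ± 0.034, 0.077 ± 0.034 and 0.082 ± 0.034 (SE) with TMM factors. The first and second turned to -0.0079 and -0.0040 with upper-quartile factors, and all 3 are among the 4 most even genes on CPM. The 18 called falling lay between -0.116 and -0.071, among them LOC115701050 at -0.112 ± 0.030, LOC115722312 at -0.116 ± 0.043 and LOC115695775 at -0.115 ± 0.045. The number called among the 178 went to 98, all falling, with upper-quartile factors, to 79, all falling, with total counts, and to 10 with DESeq2. It was 32 without control replicate 2 and 32 without heat replicate 2. The 3 called rising became 0 without control replicate 1 or control replicate 2, and 1 without control replicate 3 or heat replicate 2. The 18 called falling became 28 without control replicate 1, 32 without control replicate 2 and 31 without heat replicate 2. The SE of the log2 fold change had a median of 0.044 over the 178 genes, from 0.030 to 0.055, which is of the size of the ratios themselves. The 157 genes not called are therefore not shown to be unchanged.

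On the deposited values the 3 heat libraries lay clear of the 3 control libraries for 38 of the 178 genes (21.3%), where the groups did not overlap for 91.0% of all 17727 genes tested. On CPM they lay clear for 81 genes (45.5%), beside 91.0% of all genes tested. In each of the 81 heat was below control, a direction of separation seen for 47.7% of all genes tested. The shares among the 178 genes follow in part from the rule and from the scale.

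In the annotation 2 pairs of the stable genes are neighbours in the order of protein-coding genes, LOC115711611 with LOC115711222 and LOC115714000 with LOC115713998. Of the 178 genes 13 overlap another annotated gene (7.30%), beside 306 of the 4410 well-expressed genes (6.94%), and reads on such overlaps can be left out of the counts as ambiguous. How far reads are shared with near-identical copies of a gene was not analysed here.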

How the data were processed

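Leaf mRNA was sequenced in 3 control and 3 heat libraries, with RNA from the RNeasy Micro kit and TruSeq mRNA libraries, per the labels' protocols. Trimmomatic 0.39, HISAT2 2.2.1, HTSeq 2.0.5 and DESeq2 were used, per the submitters' processing notes. Genome build, annotation and strand setting are not given in the sources used here. The authors deposited raw counts per gene for each library, with 5 closing rows that name no gene; these rows, 11.2% of a control library and 15.9% of a heat library, entered no test and no library size other than the total of listed reads. The authors also deposited a normalized signal per gene, which equals the count times one factor per library. Dividing by it returned the counts for 100% of values (tolerance 0.01), and the factors equal the inverse of DESeq2 size factors computed from the counts.

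The 178 genes, the limits and the lists were chosen with earlier results of these data known. The genes named are the 10 of lowest coefficient of variation, the 5 of highest mean, those nearest to each limit, the 10 most even on CPM that meet both limits there, and the 3 highest and 3 lowest log2 ratios on CPM; those named for M, as a pair or as neighbours were chosen after their values were seen. The RefSeq gene table of the assembly ASM2916894v1 matched all 33673 LOC rows and was used for names, RNA class, overlap and gene order only; it gave no product names or sequences, so the planned lists by product name, protein sequences and promoter motifs were not analysed here.

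Counts were tested in R 4.3.3 with edgeR 4.0.16 (filterByExpr, TMM factors, robust dispersion, glmQLFit, glmQLFTest, two-sided) on all 6 libraries without a covariate, with Benjamini-Hochberg adjustment over 17727 genes and a threshold of 0.05. DESeq2 1.42.0 and limma 3.58.1 (voom) were alternatives. CPM are counts per 1000000 gene counts. The fit was tested on simulated counts for heat against control over the same 17727 genes. It called 51 of 56 genes set to a 1.5-fold change, 70 of 75 at 2-fold and 67 of 69 at 4-fold. It also called 3 genes that had not been changed. Few genes were set to change in the simulation, whereas 90.7% of genes were called in the data. No change under 1.5-fold was simulated. The simulation therefore cannot show how the fit performs where most genes move. Nor can it show this for ratios as small as those of the stable genes. Counting values cover counting error only.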

Additional observations from a re-analysis of the deposited data

How the results depend on the processing

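The number of genes found by the rule stayed within 1.5 times of 178 on each of the other 4 scales (169 to 181), with a level limit of 1000 or 2000 (244 and 124), with highest over lowest up to 1.3 (182) and over all gene rows (178). It was 99 and 287 with a log2 limit of 0.05 and 0.2, 83 with highest over lowest up to 1.1, and 31 with both limits on all 5 scales, an alternative chosen after seeing the data. Without one library it was 172 to 189, of which 159 to 169 were among the 178. On the other scales the number held but the genes found were in part different ones. Of the genes found on CPM 108 of 174 were among the 178, and with TMM factors 166 of 181. With upper-quartile factors 91 of 169 were among them, and per 1000000 listed reads 31 of 179. The median log2 ratio of the 178 genes, -0.0014 on the deposited values, was -0.0816 on CPM, -0.0177 with TMM factors, -0.0988 with upper-quartile factors and -0.161 per 1000000 listed reads. Each step follows from the scale itself, which is one number per library.

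In the edgeR fit the median log2 fold change of the 178 genes was -0.018. It was 0.0051 with RLE factors, -0.099 with upper-quartile factors, -0.0815 with total counts, -0.0014 with DESeq2, -0.048 with no filter beyond 1 count, and -0.0447 to -0.0166 without one library. The 21 called genes (3 rising, 18 falling) became 16 (10 and 6) with RLE factors, 98 (0 and 98) with upper-quartile factors, 79 (0 and 79) with total counts, 10 (6 and 4) with DESeq2, 32 (6 and 26) with limma-voom, and 47 (0 and 47) with no filter beyond 1 count. Without one library they were 20 to 32 (0 to 3 rising, 18 to 32 falling). The cause was not tested beyond the scale. Over all genes the calls, 16075, ranged from 15871 to 17625. The log2 fold changes of LOC115705908 and LOC115716397 turned to -0.0079 and -0.004 with upper-quartile factors. The genes named for low variation, high mean, nearness to a limit or their CPM also number 31, but are not the 31 within the limits on all 5 scales. Of the other values of these named genes, 271 stayed within 1 SD between replicates and 130 moved by more.

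With the replicate number as a block, 20 of the 178 genes were called (2 rising, 18 falling) and 15871 genes over all, at a median of -0.018. The labels do not say whether the numbers pair the libraries. Same-numbered libraries deviated with correlations of -0.0145, 0.0103 and -0.00536, which show no shared deviation but cannot show that the libraries were unpaired. Promoter motifs on the given strand only were not run. With SEs of 0.030 to 0.055 at this depth and 3 libraries a group, 21 of the 178 genes were called and 157 were not.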

Other observations

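Below the level limit of 1500, genes with nearly equal group means were found at every level looked at, and the limit on single libraries removed a larger share of them the lower the level. Among LOC genes with a mean from 800 to 1500, 123 of 2634 (4.67%) lay within the log2 limit of 0.1, and 110 of the 123 (89.4%) also kept highest over lowest within 1.2. From 400 to 800 these were 122 of 2758 (4.42%) and 83 of 122 (68.0%), and from 200 to 400 they were 89 of 2314 (3.85%) and 28 of 89 (31.5%). From 100 to 200 they were 44 of 1727 (2.55%) and 3 of 44 (6.82%). Of well-expressed genes within the log2 limit, 97.8% met the limit on single libraries. Counting error grows as counts fall, and its part in these shares was not tested.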
